A study of Mus musculus with 12 samples.

Results

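Skeletal muscle sarcomere and energy genes were followed across 12 mouse RNA-seq libraries. The 38 genes were taken by name from the deposited expression table, which holds 24421 genes, and all 38 were present and among the 18948 genes tested. They comprised 10 thick filament genes, 8 thin filament genes, 8 Z disc and scaffold genes, 6 calcium handling genes and 6 genes of energy supply and oxygen storage. The study set sorted bone marrow mesenchymal stem cells (MSCs) of p53 wildtype (WT) and p53 knockout (KO) mice beside sarcomas that arose in bone or bone marrow of p53 knockout mice. There were 3 WT MSC, 3 KO MSC and 6 KO tumor libraries, and all of them are labelled as freshly isolated. The sort kept MSCs that carry LepR and CD140a (the receptor PDGFRA) and lack CD45, CD31 and Ter119. Tumor RNA was taken with TRIzol, and the tumors carry the cell type label of tumor cell although no sort is described for them. The allele of p53, a Cre driver, the age of the mice and the identity of the animal behind each library were not stated by any source at hand. P-values therefore describe the spread from library to library alone, and this spread may be technical.

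Skeletal muscle contracts by sliding thick filaments of myosin along thin filaments of actin. Calcium released from the sarcoplasmic reticulum binds troponin C on the thin filament, and this moves the inhibitory troponins and exposes actin to myosin. Fast and slow fibers use different genes for most of these parts, and creatine kinase and glycogen breakdown supply the ATP. In bulk RNA, fewer muscle cells and less muscle RNA per cell cannot be told apart.

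Muscle genes that are active together often share short promoter motifs, so the promoters of Acta1 and Ckm and of 1 pair of fast and slow genes are shown. Acta1 encodes skeletal alpha-actin and Ckm the muscle creatine kinase. Tnnc2 and Tnnc1 encode the fast and the slow or cardiac troponin C, and were at different levels in the same tumors. Each line is the 250 bases before the RefSeq gene start in build GRCm38.p6, read 5′ to 3′ on the strand of the gene. Capitals mark matches to the E-box CANNTG, the MEF2 site, the CArG box and TATAAA. The windows are chr8:123894776-123895025 (minus strand) for Acta1, chr7:19410844-19411093 (plus) for Ckm, chr2:164779735-164779984 (minus) for Tnnc2 and chr14:31208062-31208311 (plus) for Tnnc1.
Acta1: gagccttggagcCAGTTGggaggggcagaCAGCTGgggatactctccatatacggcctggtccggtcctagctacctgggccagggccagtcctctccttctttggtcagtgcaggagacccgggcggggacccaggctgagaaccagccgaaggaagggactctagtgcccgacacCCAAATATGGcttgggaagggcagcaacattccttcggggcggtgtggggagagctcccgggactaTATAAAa
Ckm: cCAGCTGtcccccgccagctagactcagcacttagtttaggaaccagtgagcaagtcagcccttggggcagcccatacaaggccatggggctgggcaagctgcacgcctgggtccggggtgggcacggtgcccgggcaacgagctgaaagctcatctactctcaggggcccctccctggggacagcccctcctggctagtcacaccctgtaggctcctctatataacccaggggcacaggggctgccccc
Tnnc2: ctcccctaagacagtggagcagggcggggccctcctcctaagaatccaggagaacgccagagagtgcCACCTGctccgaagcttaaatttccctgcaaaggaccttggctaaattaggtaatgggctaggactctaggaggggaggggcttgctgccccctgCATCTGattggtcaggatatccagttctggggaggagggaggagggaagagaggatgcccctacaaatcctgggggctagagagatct
Tnnc1: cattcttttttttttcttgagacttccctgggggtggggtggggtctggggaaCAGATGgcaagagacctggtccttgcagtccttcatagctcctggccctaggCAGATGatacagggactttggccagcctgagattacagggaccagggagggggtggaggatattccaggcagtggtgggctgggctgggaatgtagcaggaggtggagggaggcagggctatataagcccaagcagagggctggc
The Acta1 window held E-boxes that begin 238 and 221 bases before the start, a CArG box from 73 to 64 bases before it and TATAAA from 7 to 2 bases before it. The Ckm window held an E-box 249 bases before the start, and Tnnc2 and Tnnc1 held 2 each.

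RefSeq promoter windows were found for 30 of the 38 members, 37 windows in all with alternative starts. CANNTG was present in 31 of these 37 windows (83.8%), against 66.2% of all 32851 mouse windows of the same length. Its form CAGCTG, which every count of CANNTG includes, was present in 18 windows (48.6%, against 13% of all). The CArG box was present in 5 (13.5%, against 1.47%), the MEF2 site in 5 (13.5%, against 2.92%) and TATAAA in 6 (16.2%, against 12.4%). Both strands were searched for all motifs. These are matches of letters and not measured binding sites.

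The deposited log2 values could be turned back into whole reads, which gave 7050852 to 19761061 reads per library. WT MSC 1 and the library labelled KO MSC 1 stood apart, since 5.82% and 3.96% of the tested genes had 0 reads there, against 20.4% to 46.8% in the other libraries. Trp53 had 1778, 1106 and 1309 reads in WT MSC 1 to 3. It had 3641, 949 and 55 in the libraries labelled KO MSC 1 to 3. Thus 2 of these 3 were near or above the WT level, despite their label. Tumors had 35 to 374. Since the allele of p53 was not stated, these reads alone do not decide the genotype. The stromal genes Lepr and Cxcl12 fitted the sort, with 6694 to 88156 and 225279 to 757255 reads in the 6 MSC libraries. Tumors had 2 to 127 reads of Lepr.

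Reads of the 38 muscle genes were a large share of the RNA in 1 tumor, a small share in 2 others and close to absent elsewhere. They made up 4.46% of all reads in KO tumor 4 (95% exact binomial interval 4.45 to 4.48), 0.452% in KO tumor 3 and 0.0852% in KO tumor 1. In KO tumors 2, 5 and 6 they made up 0.00488%, 0.00936% and 0.0079%. WT MSC libraries had 0.0103%, 0.00655% and 0.00706%, and the libraries labelled KO MSC had 0.0117%, 0.00416% and 0.00113%. KO tumors 1, 3 and 4 were thus above every MSC library, and KO tumors 2, 5 and 6 lay within the MSC range. Such intervals cover counting error only, as the reads carry no molecular identifiers.

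**Figure D1:**
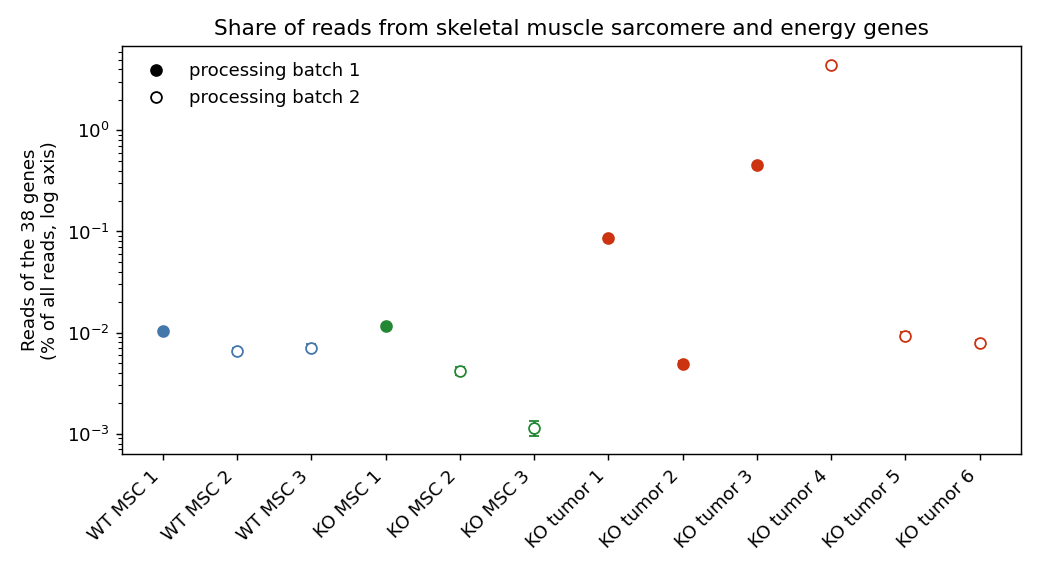
Share of all reads that came from the 38 muscle genes in each of the 12 libraries, in percent on a log axis, with 95% exact binomial intervals (mostly smaller than the points), filled for processing batch 1 and open for batch 2. KO tumors 4, 3 and 1, at 4.46%, 0.452% and 0.0852%, lie above the 6 MSC libraries and the other tumors.

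Sorted stromal cells held few muscle reads, and most of them came from a few genes. In WT MSC 2 and 3 only 7 of the 38 members had any read, and in the libraries labelled KO MSC 2 and 3 only 10 and 3 did. In WT MSC 1 and KO MSC 1, the libraries with the fewest genes at 0, the members with reads numbered 27 and 31. A total of 25 members had 0 reads in all of WT MSC 2 and 3 and KO MSC 2 and 3. The troponin genes Tnni1, Tnni2 and Tnnt3 and the slow light chain gene Myl2 had 0 reads in all 6 MSC libraries. For each library, 0 reads allows up to 3 reads of its total.

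Des, Eno3, Mylpf and Pygm were the members that MSC libraries read most regularly. Desmin, the intermediate filament protein that Des encodes, is not restricted to skeletal muscle. Des had 425, 484 and 242 reads in WT MSC 1 to 3 and 231, 124 and 85 in the libraries labelled KO MSC 1 to 3. Eno3, the muscle enolase of glycolysis, had 220, 49 and 91 reads in WT MSC and 342, 206 and 55 in KO MSC. Both genes were read in every MSC library. Mylpf, the fast regulatory light chain, had 195, 40 and 73 reads in WT MSC and 606, 131 and 0 in KO MSC, and Pygm had 90, 170 and 126 in WT MSC and 47, 37 and 0 in KO MSC. Titin, the giant spring of the sarcomere encoded by Ttn, had 249 and 588 reads in WT MSC 1 and KO MSC 1 but at most 5 in any other MSC library.

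**Figure D2:**
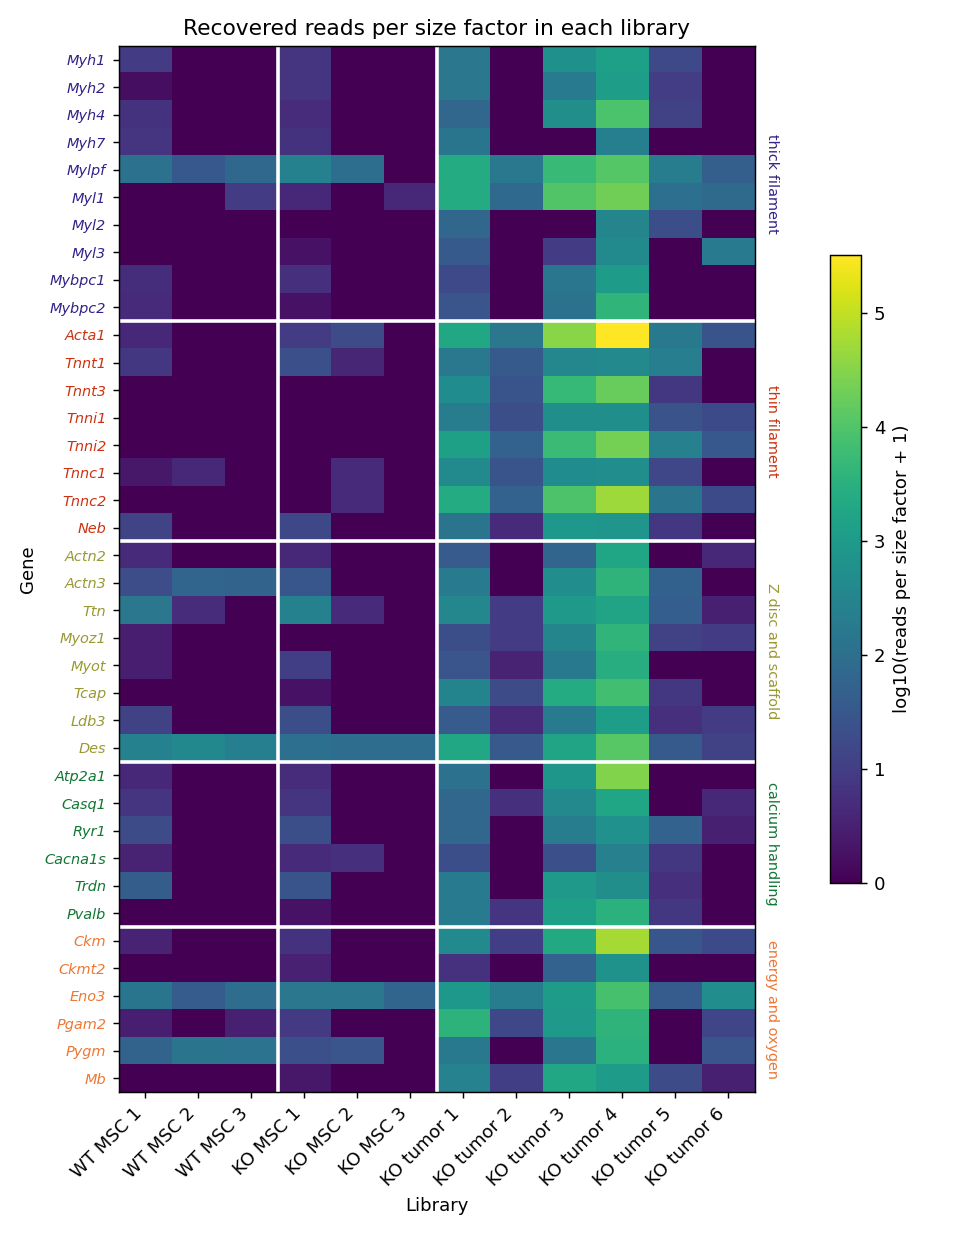
Recovered reads per size factor of each of the 38 genes (rows, grouped and colored by role) in the 12 libraries (columns), on a log10 scale after adding 1. KO tumors 1, 3 and 4 are bright in nearly all rows, while the rows of Des, Eno3 and Mylpf are also above 0 in most MSC libraries.

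Among thick filament genes, those of fast myosin were higher in KO tumor 4 than in any other library. Myh4 encodes the myosin heavy chain of the fastest fibers. In RPM, the reads of a gene scaled to an equal total of all reads in each library, it was at 656 in KO tumor 4, 25.9 in tumor 3, 2.63 in tumor 1, 0.709 in tumor 5 and 0 in tumors 2 and 6. Myh1, of intermediate fast fibers, was at 95.4, 29.4 and 6.07 RPM in tumors 4, 3 and 1. Both genes had 9 to 13 reads in WT MSC 1 and in KO MSC 1, and 0 in the other 4 MSC libraries. Myh1, Myh2 and Myh4 lie in a cluster of near-identical genes, so reads may have been divided among them with error. Myh2, of oxidative fast fibers, was at 89.8, 9.62 and 5.97 RPM in tumors 4, 3 and 1.

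The light chains and binding proteins of myosin followed the same order of tumors with exceptions. Myl1, the fast essential light chain, was at 1541, 524 and 98.2 RPM in tumors 4, 3 and 1, and at 3.90, 6.24 and 6.22 in tumors 2, 5 and 6. Its tumors all lay above its MSC libraries, which reached 0.944. Mybpc2, the fast myosin-binding protein C, was at 299 RPM in tumor 4 against 6.10 in tumor 3 and 1.06 in tumor 1, and its slow form Mybpc1 was at 79.8, 7.28 and 0.607. Myl3, the slow and ventricular essential light chain, was an exception, with 270 reads in tumor 4, 171 in tumor 6, 28 in tumor 1 and 7 in tumor 3. Slow myosin Myh7 had 107 and 147 reads in tumors 1 and 4 and 0 in the other 4 tumors.

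Thin filament genes held most muscle reads of KO tumors 3 and 4. Acta1 alone gave 52.9% of the muscle reads of KO tumor 4, 37.5% of those of tumor 3 and 8.90% of those of tumor 1. It was at 23611 RPM in tumor 4, 1692 in tumor 3, 75.9 in tumor 1, 10.5 in tumor 5, 7.93 in tumor 2 and 2.05 in tumor 6. In MSCs it had 5 reads in WT MSC 1 and 0 in WT MSC 2 and 3, and 19, 25 and 0 in the libraries labelled KO MSC 1 to 3. By RPM every tumor lay above every MSC library, though tumor 6 did so by little, with 2.05 against 1.90 in KO MSC 2. Summed over its libraries and divided by their size factors, Acta1 was 39451-fold higher in tumors than in WT MSCs, which held 5 of its reads, and 6158-fold higher without tumor 4.

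Both inhibitory troponins were read in every tumor and in no MSC library. Tnni2, the fast inhibitory subunit, had 1071, 44, 4804, 13685, 110 and 30 reads in KO tumors 1 to 6 and 0 in every MSC library. Summed over groups, with 3 reads allowed for the 0 of the whole WT MSC group, it was at least 5727-fold higher in tumors, and at least 2035-fold without tumor 4. Tnni1, its slow counterpart, had 158, 17, 484, 336, 11 and 16 reads in tumors 1 to 6 and also 0 in every MSC library. Tumors 1, 3 and 4 were high for both genes and tumors 2, 5 and 6 low. Tnnc2, the fast calcium sensor whose promoter is shown above, had 1886, 43, 8095, 30502, 57 and 16 reads in tumors 1 to 6 and 5 reads in MSCs, all in KO MSC 2. Tnnt3, the fast subunit that ties troponin to tropomyosin, had 10433 reads in tumor 4 but 3 in tumor 5 and 0 in tumor 6. Nebulin, which runs along the thin filament and is encoded by Neb, was at 43.6 and 55.5 RPM in tumors 3 and 4.

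Z disc genes were highest in KO tumor 4 as well. Tcap, which caps titin, was at 516, 125 and 12.2 RPM in tumors 4, 3 and 1 and at most 0.944 elsewhere. Myoz1, a calcineurin-binding protein of fast Z discs, was at 299.7 RPM in tumor 4, 16.0 in tumor 3 and 0.440 to 0.810 in the other 4 tumors. Its MSC libraries reached 0.215, below every tumor. Des was at 899, 83.1 and 74.6 RPM in tumors 4, 3 and 1. In tumors 2, 5 and 6 it was at 1.76, 2.27 and 0.819, below the 6.71 to 38.3 of the MSC libraries. The titin gene Ttn was at 124, 47.6 and 14.2 RPM in tumors 4, 3 and 1, the alpha-actinins Actn3 and Actn2, which crosslink actin, were at 281 and 131 in tumor 4, and the Z disc genes Myot and Ldb3 were at 200.1 and 85.4 there. Desmin lay on both sides of the MSCs, depending on the tumor.

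By RPM, calcium handling genes were led by the pump in KO tumor 4 only. Atp2a1, the fast calcium pump of the sarcoplasmic reticulum, was at 2133 RPM in tumor 4, 42.1 in tumor 3 and 4.76 in tumor 1, with 0 reads in tumors 2, 5 and 6. In MSCs it had 5 reads in WT MSC 1 and 9 in KO MSC 1 alone. Pvalb, the calcium buffer parvalbumin, was at 245, 66.3 and 7.08 RPM in tumors 4, 3 and 1. Trdn, which anchors the release complex, was one of the few members not highest in tumor 4, with 38.2 RPM there and 47.9 in tumor 3. The release channel Ryr1 and the voltage sensor Cacna1s had smaller values, of 44.2 and 17.9 RPM in tumor 4. Casq1, which stores calcium in the reticulum, was at 136, 19.7 and 2.58 RPM in tumors 4, 3 and 1.

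By RPM, the energy genes were highest in KO tumor 4, while the oxygen store myoglobin was highest in tumor 3. Ckm was at 4239, 113 and 17.0 RPM in tumors 4, 3 and 1, and at 0.503, 1.84 and 1.31 in tumors 2, 5 and 6. Its highest MSC library, KO MSC 1, was at 0.612, above tumor 2 on this scale though not per size factor. Pgam2, the muscle phosphoglycerate mutase, was at 144 RPM in tumor 1, above the 48.5 of tumor 3 and below the 274 of tumor 4. Myoglobin, the oxygen store of slow and oxidative fibers encoded by Mb, was at 101 RPM in tumor 3 and 80.1 in tumor 4. Pygm, which breaks down muscle glycogen, was at 241 RPM in tumor 4. It was at 6.58 and 7.16 in tumors 1 and 3, within the 0 to 14.9 of the MSC libraries. Eno3 was at 577 RPM in tumor 4 and 40.4 in tumor 6, and Ckmt2, the mitochondrial creatine kinase, at 47.6 in tumor 4 and at most 2.64 elsewhere.

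The ratio of KO tumor 4 to KO tumor 3 varied widely between members, so no single factor relates these libraries. Over the 36 members with reads in both tumors, the ratio of reads per size factor ran from 0.543 (Mb) to 54.2 (Myl3) with a median of 5.84. The median over all genes with reads in both was 1.05. High ratios belonged to Atp2a1 (34.7, 95% counting interval 32.2 to 37.5), Mybpc2 (33.6), Actn2 (29.5), Ckm (25.6), Pygm (23.0) and Myh4 (17.3). Low ratios belonged to the slow troponins Tnni1 (0.976), Tnnc1 (1.07) and Tnnt1 (1.12), to Neb (0.872), Trdn (0.546, interval 0.478 to 0.622) and Mb (interval 0.496 to 0.594). Other slow forms were not low. Myl3 and Mybpc1 had ratios of 54.2 and 7.51, and Myh7 and Myl2 had 147 and 196 reads in tumor 4 and 0 in tumor 3. By RPM, Tnni1 and Neb were higher in tumor 4 than in tumor 3, so their order depends on the scaling, while that of Trdn and Mb does not. The fast troponins Tnni2, Tnnc2 and Tnnt3 had ratios of 4.00, 5.30 and 3.53, each above the slow form of the same subunit with no overlap of intervals. Each tumor is 1 library, so these ratios compare libraries and have no replicate check.

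**Figure D3:**
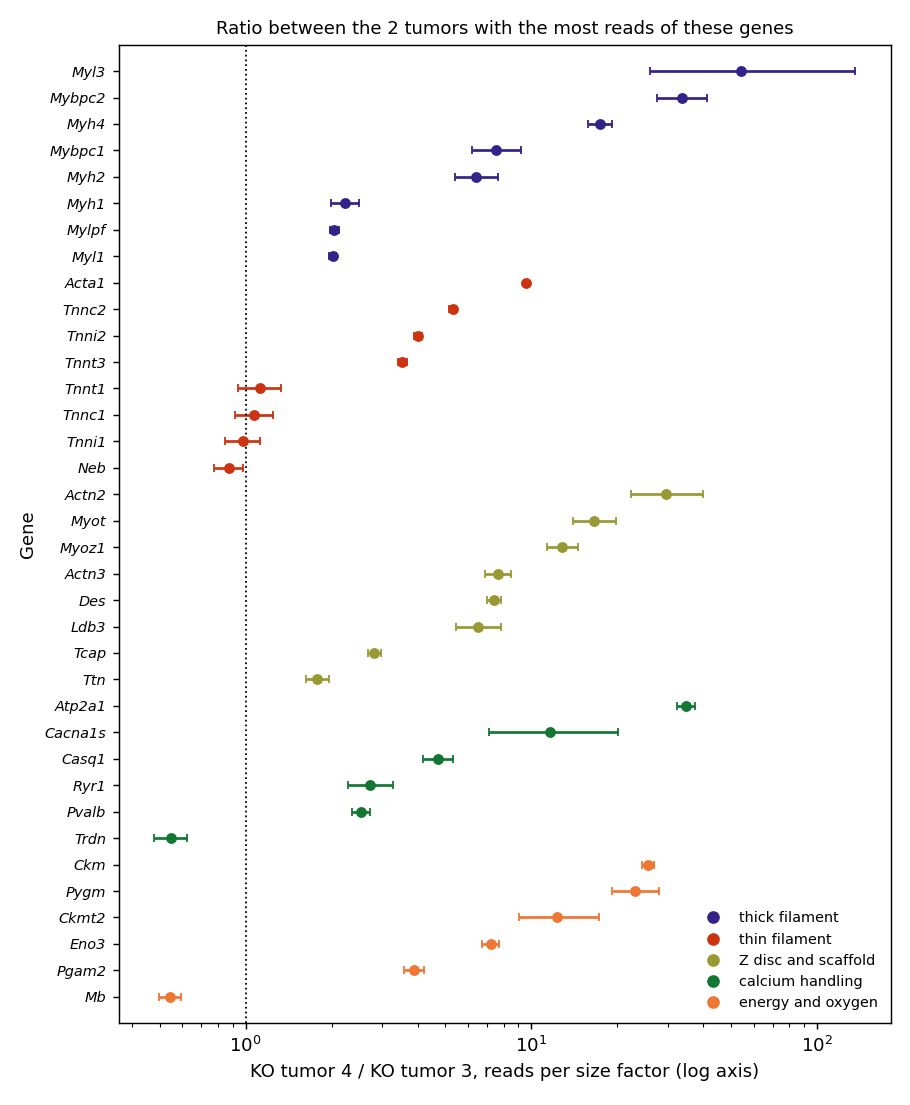
Ratio of reads per size factor between KO tumor 4 and KO tumor 3 for the 36 members with reads in both, on a log axis, with exact 95% counting intervals and colors by role; the dotted line marks equal levels. Slow troponins, Neb, Trdn and Mb lie near or below 1, while Myl3, Atp2a1, Mybpc2 and Actn2 lie near 30 or above.

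Fast troponins outweighed slow troponins in KO tumors 1, 3 and 4, by an amount that differed between them. Levels of different genes are compared here as reads per kilobase of exon. Tnni2 made up 94.2%, 96.0% and 99.0% of both inhibitory troponins in KO tumors 1, 3 and 4. Tnnc2 made up 88.1%, 96.3% and 99.2% of troponin C, and Tnnt3 made up 80.5%, 95.0% and 98.4% of both skeletal troponin T genes. In each of these 3 troponin families the fast share was lowest in tumor 1 and highest in tumor 4. In tumor 5 the slow Tnnt1 had 98 of 101 troponin T reads. The essential light chains had another order, with a Myl1 share of 98.6%, 99.9% and 97.9% against Myl3 in tumors 1, 3 and 4. Among the 4 adult myosin heavy chains, Myh4 made up 15.3%, 41.9% and 78.6% in tumors 1, 3 and 4, and slow Myh7 made up 22.0%, 0% and 1.48%. With 0 of 1107 reads in tumor 3, a Myh7 share of up to 0.333% of the reads is allowed.

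**Figure D4:**
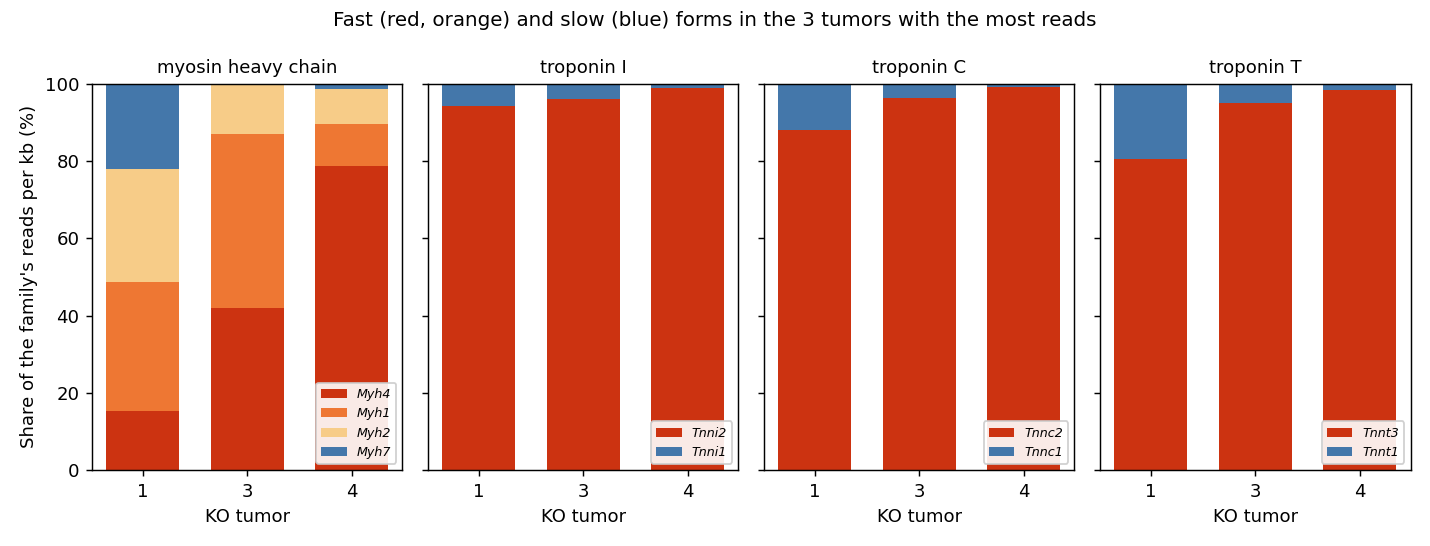
Share of each gene in the reads per kilobase of its family, in percent, for 4 families in KO tumors 1, 3 and 4, with fast forms in red and orange tones and slow forms in blue. The Myh4 part grows from 15.3% in tumor 1 to 78.6% in tumor 4, and slow forms are largest in tumor 1.

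Embryonic muscle genes had the opposite order from adult fast genes in KO tumors 3 and 4. Myh3, the embryonic myosin, had 61 and 64 reads in tumors 1 and 3 and 4 in tumor 4. Tnnt2, the embryonic and cardiac troponin T, had 204, 331 and 7 reads in the same tumors, and Actc1, the embryonic and cardiac actin, had 49, 377 and 32. Myog, a transcription factor of muscle differentiation, had 32 and 184 reads in tumors 1 and 3 and 7 in tumor 4. Per size factor the ratio of tumor 4 to tumor 3 was 0.030 for Tnnt2, 0.053 for Myog, 0.088 for Myh3 and 0.119 for Actc1. Myf6, the regulator most linked with mature fibers, had 268 and 330 reads in tumors 3 and 4 and a ratio of 1.73. Pax7, which marks satellite cells, had 0 reads in all 6 tumors, and Myod1 had 12, 45 and 49 in tumors 1, 3 and 4 and 0 in the others. These genes are not members and serve only to place the members.

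The question of the main comparisons was whether tumors as a group differed from the stromal cells in these genes. They were tested with limma on the deposited log2 values, two-sided, with Benjamini-Hochberg adjustment over all 18948 genes and a threshold of 0.05. This scale flattens at low reads, so changes of rarely read genes are understated. Against WT MSC, 0 of 38 members passed, where 21.3% of all genes tested did. At an unadjusted p under 0.05, 8 members were higher and 0 lower, against a background of 16.4% and 20.8% of genes. The median change of the members was 1.91 on the log2 scale, and -0.06 over all genes tested. The change was above 0 for 37 of 38 members, against 46.4% of all genes. All members passed the filter on low values, as the genes tested were those that vary and are held by both deposited tables.

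The members nearest to the threshold were troponins and Myl1. On the deposited scale Tnni1 was at 4.24, 5.26 and 5.26 in WT MSC 1 to 3 and at 7.46, 5.46, 8.75, 9.74, 6.60 and 6.37 in KO tumors 1 to 6. All its tumors lay above its WT MSC libraries, and the difference was 2.48 ± 0.83 (SE, n = 6 and 3), with an adjusted p of 0.0559 by limma. Tnni2 differed by 4.75 ± 1.65, with no overlap and an adjusted p of 0.0640 by limma; an exact permutation test gave 0.0357, where the smallest possible value is 0.0119. Myl1, Tnnt1, Tnnc2 and Acta1 differed by 4.71 ± 1.70, 2.23 ± 0.81, 4.97 ± 1.95 and 5.72 ± 2.36, and their adjusted p-values by limma were 0.0725, 0.0746, 0.0950 and 0.109. The spread among tumors was wide, and Acta1 ran from 6.67 in tumor 2 to 19.28 in tumor 4. Groups did not overlap, tumors being higher, in 5 members (Tnni1, Tnni2, Tnnc2, Acta1 and Myoz1), against 12.9% of all genes.

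Tumors against the libraries labelled KO MSC gave similar sizes. These comparisons share the 6 tumors, so they are not independent. Again 0 of 38 members passed, where 4.98% of all genes did. All 38 changes were above 0, against 52.7% of genes, with a median of 1.91, and 0.04 over all genes. At an unadjusted p under 0.05, 7 members were higher and 0 lower (background 13.6% and 12.8%). Tnni1 differed by 2.48 ± 0.84 and Tnni2 by 4.75 ± 1.61, each with an adjusted p of 0.105 by limma (n = 6 and 3). Myl1, Tnnc2, Tnnt1 and Acta1 differed by 4.64, 4.80, 1.89 and 5.23, and their adjusted p-values by limma were 0.117, 0.158, 0.176 and 0.179. Groups did not overlap in 3 members (Tnni1, Tnni2 and Myoz1), against 8% of all genes.

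Calls for single members differed with the values tested. With limma's voom on the recovered reads, an alternative chosen after the data were seen, 7 members rose in tumors against WT MSC (Tnni1, Tnni2, Mb, Tnnc2, Myl1, Myl3 and Myoz1), where 11.1% of genes rose. Against KO MSC 4 members rose by that test (Tnni1, Tnni2, Myoz1 and Mb), where 4.81% of genes did. Without KO tumor 4 the same test called 7 members against WT MSC, with Ckm in place of Myl3, where 11.4% of genes rose. It then called 5 against KO MSC (Tnni1, Tnni2, Myoz1, Ckm and Tnnc2), where 4.74% of genes rose. On the deposited scale the median change without tumor 4 fell to 1.15 in both comparisons, and within processing batch 1 and batch 2 it was 1.63 and 2.31 against WT MSC and 1.65 and 2.30 against KO MSC.

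A gene with 0 reads has a different deposited value in the 2 processing batches, by -0.34 (Myl2) to 2.2 (Ttn) among the members. Batch 1 held WT MSC 1, KO MSC 1 and tumors 1 to 3, and batch 2 held the rest. Acta1, for example, was at 4.25 in WT MSC 1 with 5 reads and at 5.74 in WT MSC 2 with 0 reads. In recovered reads per size factor 8 members did not overlap between tumors and WT MSC (background 12.1%), adding Myl1, Ckm and Mb to the 5 named above. The same 8 members did not overlap between tumors and KO MSC (background 6.58%).

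**Figure D5:**
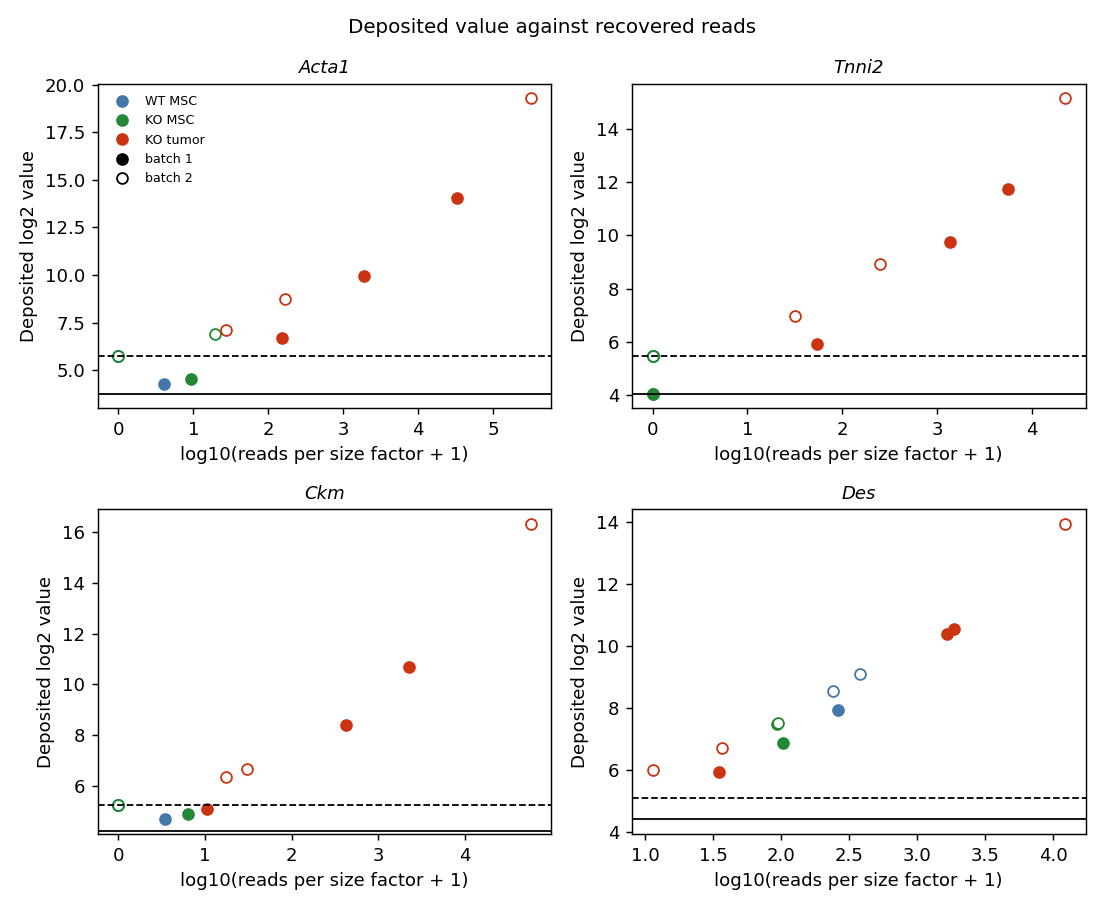
Deposited log2 value against recovered reads per size factor (log10 after adding 1) for Acta1, Tnni2, Ckm and Des in the 12 libraries, filled for batch 1 and open for batch 2; the solid and dashed lines mark the value of 0 reads in batch 1 and batch 2. Libraries of batch 2 with 0 Acta1 reads sit at 5.74, above WT MSC 1 at 4.25, and KO tumor 4 sits far above all others.

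KO MSC against WT MSC compared the sorted libraries by their genotype labels. In 2 of the 3 libraries labelled KO MSC, Trp53 reads were near or above the WT level. By limma 0 of 38 members passed, where 0% of all genes did, and voom on the recovered reads also called 0. At an unadjusted p under 0.05, 0 members were higher and 3 lower, against 2.57% and 6.07% of genes. The median change was 0.01 for the members and -0.01 for all genes, and 21 members were above 0, against 46.4% of genes. With upper-quartile centring or quantile normalization of the libraries, 34 and 33 members were above 0. These scalings also move the values of 0 reads, so the signs of unread members follow from the scaling. Pygm was at 6.76, 7.42 and 7.36 in WT MSC and at 6.07, 6.06 and 4.66 in the libraries labelled KO MSC. The groups did not overlap, but the difference of -1.59 ± 0.52 (SE, n = 3 and 3) did not pass (adjusted p = 0.551 by limma), and the exact permutation p was 0.1, the smallest that 3 against 3 allows. Des was at 7.93, 9.10 and 8.54 against 6.88, 7.49 and 7.51, also without overlap, a difference of -1.23 ± 0.46 (adjusted p = 0.554 by limma). Lower values without overlap, as in these 2 members, were found in 8.93% of all genes. Actn3, the fast fiber alpha-actinin, differed by -1.22 ± 0.48, but its groups overlapped (adjusted p = 0.557 by limma). Its difference was 0.25 in batch 1 alone, with 1 library in each group, where 23 members were above 0. Tnnt1, Cacna1s and Ckmt2, next by p, differed by 0.33 ± 0.21, 0.22 ± 0.18 and 0.14 ± 0.12 (adjusted p = 0.689, 0.755 and 0.780 by limma). With single libraries left out, the lowest values were 0.21 for Tnnt1 and 0.09 for Cacna1s without KO MSC 2, and 0.02 for Ckmt2 without KO MSC 1. The highest value of Tnnt1 was 0.45, without KO MSC 3. Of the 8 LepR+ stroma genes 0 passed and all had changes below 0, with a median of -1.30, and their part in these values was not tested.

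Tumors varied more in these genes than in most others. On the deposited log2 scale, the SD among the 6 tumors had a median of 2.48 over the 38 members, against 0.525 over all genes tested. Tumors 1 to 3 and 4 to 6 belong to different batches, so this SD includes the shift between batches. Myh1, with 0 reads in tumors 2 and 6, was at 4.23 and 5.27 there. It was above 2 in 29 of 38 members and in 1.43% of all genes. Acta1 had the largest SD among members, 4.85, and Cacna1s the smallest, 1.30. Without tumor 4 the median SD of the members was 1.59. KO tumors 1, 3 and 4 were the 3 highest tumors in reads per size factor for 34 of 38 members. Tumor 4 was highest for 34 members and tumor 3 for 4 (Tnni1, Neb, Trdn and Mb).

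KO tumors 2, 5 and 6 had reads of 22, 27 and 19 of the 38 members, with 775, 660 and 965 muscle reads in all. Reads per size factor were above all 6 MSC libraries for 15, 19 and 11 members in tumors 2, 5 and 6, against 24.7%, 25.1% and 20.4% of all genes tested. In tumors 1, 3 and 4 this held for 38, 36 and 38 members, against 27.3%, 25.0% and 21.4% of genes. These counts depend on the scaling. By RPM, tumor 1 lay below the highest MSC library for Ttn, Pygm, Ldb3, Ckmt2 and Myot, and tumor 3 did so for Pygm. Pygm was at 6.58 and 7.16 RPM in tumors 1 and 3, against 14.9 in WT MSC 3. Ldb3 was at 1.47 RPM in tumor 1, against 2.30 in KO MSC 1. The 4 myosin heavy chain members had 0 reads in tumors 2 and 6 and 16 in tumor 5. Muscle reads in tumor 6 came largely from Eno3, with 493 of 965, and Myl3, with 171.

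Of 44 further adult striated muscle genes, 4 rose in tumors against WT MSC by limma (Cav3, Chrna1, Cox6a2 and Cox7a1), 0 fell and 40 did not pass. Of all genes tested, 10.4% rose in that comparison. Cox6a2, a muscle subunit of cytochrome oxidase, had 1138, 54, 1152, 1332, 29 and 13 reads in tumors 1 to 6 and 0 in all MSC libraries, a change of 3.55 ± 1.15 (adjusted p = 0.0493 by limma). Against KO MSC 1 of the 44 rose, where 2.7% of all genes did. It was the tropomyosin gene Tpm2, which nonmuscle cells also use. Median changes of this list were 0.93 against WT MSC and 1.0 against KO MSC. Its sums per size factor were 9472 to 20695 in WT MSC, 6277 to 8090 in KO MSC and 7539 to 74287 in tumors. Tpm1, Tpm2 and Tpm3 gave most of the sum in every library, with 18556 from Tpm1 in WT MSC 2 and 13895 from Tpm3 in tumor 2. Of 12 tested myogenic regulators and embryonic forms, Mef2c rose in both comparisons by limma, by 2.65 ± 0.70 and 3.52 ± 0.78 (adjusted p = 0.0223 and 0.0276). Per size factor Mef2c was at 3128, 345, 3352, 1106, 755 and 1652 in tumors 1 to 6. Tumor 6, with few muscle reads, thus lay above tumor 4 for this gene. Of 10 broadly expressed counterparts of the members, such as Ckb, 2 rose in each comparison (Actb and Myl6 against WT MSC, Actn1 and Myl6 against KO MSC).

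Markers of other cell types were read in the tumors too. Of all 18948 genes tested, 1970 rose and 2063 fell in tumors against WT MSC by limma, and 512 rose and 432 fell against KO MSC. All 6 macrophage genes rose in tumors in both comparisons by limma. Their summed reads per size factor were 8.94 to 310.4 in WT MSC, 4.41 to 530.5 in KO MSC and 18481 to 136107 in tumors. Tumor 2, with few muscle reads, had 68267 and tumor 4 had 77416. Of the endothelial genes 4 of 4 rose against WT MSC and 3 of 4 against KO MSC, with sums of 4.68 to 19.6, 0 to 43.1 and 399 to 1482. All 8 stromal genes fell against WT MSC and 5 of 8 against KO MSC, with sums of 402419 to 720706, 118565 to 656141 and 1583 to 5131. Of 8 smooth muscle genes, which include Des, 3 rose against WT MSC (Acta2, Actg2 and Tagln) and 2 against KO MSC (Acta2 and Actg2); the sums were 1566 to 2294, 259.8 to 1202 and 1699 to 23656. In tumors the list ran from at most 11 reads of Myh11 to 508 to 6339 reads of Acta2. The part of these cell types in the muscle values was not tested.

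Cardiac markers were close to absent. Of 4 cardiac genes tested 0 rose or fell by limma, and 0 had an unadjusted p under 0.05. Myl7 had 0 reads in all libraries, Nppa had 2, all in tumor 2, and Tnni3 had 0 in all tumors. Sums of the 6 cardiac genes were 0 to 34.4 in WT MSC, 0 to 40.4 in KO MSC and 1.04 to 388 in tumors. Tnnt2 gave most of the sum in tumors 1 to 3. Myh6 gave most in tumors 4 and 6, with 16 reads and 1 read, and Ryr2 in tumor 5, with 19 reads. Of 5 Schwann cell genes tested 0 passed by limma, and at an unadjusted p under 0.05, 2 were lower against WT MSC and 0 against KO MSC, with sums of 2389 to 3073, 1576 to 3567 and 527 to 1948. Of 4 erythroid genes 1 fell in each tumor comparison, with sums of 4043 to 144230, 6488 to 45475 and 1558 to 241035. Of 3 adipocyte genes tested 1 rose (Fabp4) and 1 fell (Plin1) against WT MSC. Against KO MSC 0 passed (2 higher at an unadjusted p under 0.05). Sums were 69.3 to 586 in WT MSC, 14.9 to 1051 in KO MSC and 577 to 17210 in tumors. Fabp4 gave most of the sum in every tumor, with 316 to 14818 reads, and Plin1 had 5 reads in tumor 4 and 0 in the others. The blood cell gene Ptprc rose against WT MSC alone, with 0 to 81.0, 0 to 319 and 213 to 795; whether its 2 changes differ was not tested.

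The genes outside the list whose deposited values ran most alike with the mean of the members over the 12 libraries were Adprhl1, Ablim3, Myoz2, Pdlim3, Sh3bgr, Trim63, Fitm1, Ankrd2, Art1 and Hspb7. Their Pearson correlations ran from 0.978 (Hspb7) to 0.991 (Adprhl1), over libraries that share batches and in which tumor 4 is extreme. Pdlim3 had 42, 4, 475, 2378, 3 and 4 reads in KO tumors 1 to 6 and 2 reads in the 6 MSC libraries together. Hspb7 had 117, 11, 216, 1108, 0 and 13 reads in these tumors. Both thus had most reads in tumor 4, then tumor 3, then tumor 1.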

How the data were processed

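The 12 libraries came from SMART-Seq v4 cDNA and an unstranded DNA library kit, per the labels' protocols. TopHat2 2.0.13, Cufflinks 2.2.1, Cuffdiff and mm10 are named in the submitters' processing notes, without their order or role. The authors deposited log2 values for 24421 genes in a table whose title names variance stabilization and batch adjustment. The authors' other deposited table, titled as normalized counts, holds a score that is the same value times 100, rounded and divided by 1 factor per library.

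The deposited values followed the closed form of a variance-stabilizing function of size-scaled counts, with a floor of 4.75 at 0 reads and a shift per gene that moved 2 sets of libraries, called batches here, in opposite directions by equal amounts. Batches were read from shared floor values, since the labels name none. Solving for the shift gave whole reads (tolerance 0.05) for 100% of genes. Size factors recomputed from those reads differed from the solved ones by at most 1.57%. How reads were assigned to genes and whether pairs were counted once is not given in the sources used here. Reads of neighbouring paralogs and of antisense genes may be shared.

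The main test was limma 3.58.1 (R 4.3.3; lmFit, then eBayes with trend) on the libraries of the compared groups only, over 18948 genes, two-sided. A count test was not the main test because the deposited unit is log2; voom on the recovered reads, with and without tumor 4, and removal of the batch shift were added after the data were seen. Fits were tested on simulated data. Genes given with change, SE and adjusted p are members that passed or else the 6 with the smallest p, and the genes most alike are the 10 highest by correlation. Alternatives were the replicate block, batch as a covariate, each batch alone, each library left out, no filter, the other table, 2 scalings, no trend, library weights and 1 joint fit. The members and lists were chosen with earlier results of these data known. Promoter windows came from RefSeq, GRCm38.p6. Intervals are exact, at 95%. Mymk was not analysed here.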

Additional observations from a re-analysis of the deposited data

Results flagged for a closer look

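In 3 members the value of KO tumor 4 lay far from the other 5 tumors. On the deposited log2 scale Mybpc2 was at 12.09 there, with the next tumor at 7.33. Actn2 was at 10.94, with the next at 6.65, and Cacna1s at 8.28, with the next at 5.91. All 38 members were looked at in this way, and chance alone marks about 1 in 20 groups. The members are correlated across tumors, so these 3 are not independent of each other.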

How the results depend on the processing

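With 0 members called as the main result, tumors against WT MSC gave 1 call with the other deposited table (21% of all genes called), 4 with upper-quartile centring (21%), 3 in the joint fit (17.5%) and 12 with library weights (36%). Leaving out single libraries gave 0 to 5 (5 without KO tumor 2, where 19% of genes were called, and 1 each without tumors 4 and 6, where 25% and 17.9% were). Library weights called 4 members between the MSC groups (12.9% of genes) and 4 in tumors against KO MSC (25.4%), but their estimation did not converge for these. Voom called 4 and 7 members against KO MSC and WT MSC (7.3% and 20.5% of genes), and without KO tumor 4 it called 5 and 7 (6.88% and 21.6%). Its median changes were 4.71 and 4.81, and 3.73 against KO MSC without tumor 4; they depend on the 0.5 that voom adds to each count. The median of KO against WT MSC was 0.24 with quantile normalization, which also moves the values of 0 reads. The change of Actn3 was 0.25 in batch 1 alone. Median changes without single libraries ran from 1.15 to 2.27 and from 1.15 to 2.39 in tumors against KO MSC and WT MSC, lowest without tumor 4.

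The number of genes called was 0 between the MSC groups, and 944 and 4033 in tumors against KO MSC and against WT MSC. In batch 2 alone they were 43, 27 and 540, and with library weights 2447, 4821 and 6821. Tumor against KO MSC gave 3247 in batch 1 alone, 1545 with quantile normalization, 1923 in the joint fit and 113 to 1627 without single libraries (113, 396 and 1627 without KO MSC 1, 2 and 3, 597 and 621 without tumors 5 and 6). Tumor against WT MSC gave 1856 to 4737 without single libraries (1856, 2339 and 2268 without WT MSC 1, 2 and 3). With the replicate block 34 and 1445 genes were called in the tumor comparisons, and 0 members. Correlations of same-numbered deviations ran from -0.319 to 0.238, and those of different numbers from -0.362 to 0.419. They cannot decide whether same-numbered libraries are paired, since deviations within a group must sum to 0. Causes were not tested. Depth limits low genes: 0 reads in a library allows up to 3.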

Other observations

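Some muscle-related values did not follow the order of the tumors given above, and were picked after the values were seen. Chrna1, the muscle acetylcholine receptor subunit, had 1856 reads in KO tumor 2, against 50, 318 and 473 in tumors 1, 3 and 4. Cav3, the caveolin of muscle membranes, had 224 reads in tumor 6 and 132 in tumor 5, against 98 in tumor 4 and 236 in tumor 3. Sln, which regulates the calcium pump, had 3815 and 3851 reads in tumors 1 and 3 and 341 in tumor 4, a ratio of tumor 4 to tumor 3 of 0.124 per size factor. Ckb, the broadly expressed creatine kinase, had 32070 and 59219 reads in tumors 1 and 3 and 718 in tumor 4, where Ckm had 35209. Cox7a1, a mitochondrial gene of muscle and brown fat, had 1624, 554 and 92 reads in tumors 1, 3 and 4.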
